A study of Mus musculus with 12 samples.

Results

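A group of 5 genes of the LIM network is described here, chosen by name and followed through the platform annotation to their probe sets: the LIM-homeodomain genes Lhx2, Lhx8 and Lhx9, the LIM-only gene Lmo4 and the LIM-binding cofactor Ldb1. The annotation gave these 5 genes 6 of the 22626 probe sets that were not controls. All 5 genes passed the filter on low signal and belonged to the 7721 genes tested. The arrays hold RNA of sorted muscle progenitors of the mouse embryo. All 6 groups came from ICR embryos of the genotype Myf5Cre;RosaYFP, in which cells that have expressed Myf5, and their descendants, carry a yellow fluorescent protein. YFP+ cells were sorted from the head at E9.5, E10.5 and E11.5 and from the trunk at E9.5, E10.5 and E11.5, with 2 arrays per group and 12 arrays in all. The label marks a lineage and not present expression, so a sorted cell need not be a myoblast. Nothing in the labels ties the 2 arrays of a group to separate embryos, litters or pools. The p-values therefore cover the spread between arrays alone, which may be technical.

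LIM-homeodomain proteins are transcription factors with a pair of LIM zinc-binding domains and a DNA-binding homeodomain. The LIM domains bind Ldb1, an adaptor that joins such factors into larger complexes, and LIM-only proteins such as Lmo4 carry LIM domains without a homeodomain and compete for the same adaptor. In the mouse, Lhx2 is known for its role in eye, forebrain and limb development and as a factor of pharyngeal mesoderm. Lhx8 is known from forebrain cholinergic neurons and from the ectomesenchyme of the jaw and palate, and Lhx9 from the gonad, the limb and spinal interneurons.

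The muscle label was checked against 7 markers of muscle progenitors and early muscle. Myf5 had a signal of 525 to 2294 intensity units on the head arrays and of 999 to 1305 on the trunk arrays. The later myogenic factor Myod1 was below the array median at E9.5, with 57 and 96 in head and 70 and 74 in trunk. At E11.5 it was at 2156 and 2337 in head and at 1198 and 879 in trunk. At E9.5, 5 of the 7 markers were below the array median on both arrays in head, and 3 were in trunk. Of the 6 muscle markers tested, 0 were higher and 3 lower in head at E9.5 (median log2 −0.40). At E10.5, 1 was higher and 1 lower (median −0.82), and at E11.5 0 were higher and 0 lower (median 0.52). Over the mean of the stages 0 were higher and 1 lower (median −0.35). The median signal of an array lay between 108.6 and 110.4, and a signal below that median is called dim in what follows, because such values carry little information on level. The arrays labelled replicate 1 at E10.5 stood apart in both regions in one transcript, Xist, with a log2 signal of 7.35 in head and 6.37 in trunk, against 11.89 to 13.10 on the other 10 arrays. Results at E10.5 are therefore also given without that pair of arrays.

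The windows at the annotated transcript starts of the 3 LIM-homeodomain genes, from RefSeq on GRCm38.p6, are shown because in each of these genes the arrays above the median all came from 1 region. Each holds the 250 bases before and 50 bases after a start, written 5′ to 3′ on the gene's strand, and capitals mark a match to one of the motifs searched. The Lhx2 window lies at chr2:38339031-38339330 on the plus strand, at 1 of its 2 annotated starts, the Lhx8 window at chr3:154330511-154330810 on the minus strand, and the Lhx9 window at chr1:138842395-138842694 on the minus strand. The annotated Lhx9 gene reaches to position 138848839, so its window lies inside the gene and not at the outermost 5′ end, for which no window was available.
Lhx2: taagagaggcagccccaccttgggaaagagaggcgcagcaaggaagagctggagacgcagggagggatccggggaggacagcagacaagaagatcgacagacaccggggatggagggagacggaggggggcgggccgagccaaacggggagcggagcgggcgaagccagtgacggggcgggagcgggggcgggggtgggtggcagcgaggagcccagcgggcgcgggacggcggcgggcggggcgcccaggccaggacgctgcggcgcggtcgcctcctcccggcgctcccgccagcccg
Lhx8: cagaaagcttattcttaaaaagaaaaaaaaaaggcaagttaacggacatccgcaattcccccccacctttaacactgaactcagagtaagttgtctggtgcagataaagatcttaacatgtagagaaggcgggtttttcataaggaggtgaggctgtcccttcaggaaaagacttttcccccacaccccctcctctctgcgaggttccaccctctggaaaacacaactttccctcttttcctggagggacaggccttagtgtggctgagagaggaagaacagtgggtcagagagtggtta
Lhx9: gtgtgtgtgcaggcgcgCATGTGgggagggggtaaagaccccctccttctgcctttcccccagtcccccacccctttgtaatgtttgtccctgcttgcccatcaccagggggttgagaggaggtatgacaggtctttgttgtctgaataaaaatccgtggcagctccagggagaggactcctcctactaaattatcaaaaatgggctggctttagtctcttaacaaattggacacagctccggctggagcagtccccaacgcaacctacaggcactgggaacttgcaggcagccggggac
The motifs were TAATTA and TAATTG, the core letters known for LIM-homeodomain binding, and CANNTG, the E-box of basic helix-loop-helix factors, each searched on both strands. The Lhx2 and Lhx8 windows printed here held no match, and the Lhx9 window held 1 CANNTG. The window at the other Lhx2 start, chr2:38351058-38351357 on the plus strand, held 1 CANNTG as well. Over all 32851 windows of this length, 5.3% held TAATTA, 8.0% held TAATTG and 72.3% held CANNTG. The share of G and C was 74.7% in the printed Lhx2 window, 47.0% for Lhx8 and 55.3% for Lhx9, and the median of all windows was 52.7%.

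Head and trunk progenitors differed in Lhx2 and Lhx8 over the mean of the 3 stages, and both genes were higher in head. Lhx9, Lmo4 and Ldb1 did not pass the test in this comparison. So 2 of the 5 members were called at an adjusted p under 0.05, while 10.5% of all genes tested were. Lhx2 and Lhx8 entered the test through head arrays alone and Lhx9 through the trunk arrays at E11.5 alone, so that the count says nothing beyond their own values. In bulk RNA, fewer cells that express a gene and less RNA per cell cannot be told apart.

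Lhx2 was bright in head at E9.5 and E10.5 and dim in trunk at every stage. Its signal in head was 389.0 and 550.4 at E9.5, 257.5 and 337.5 at E10.5, and 109.2 and 103.4 at E11.5. In trunk it was 3.1 and 3.0 at E9.5, 4.7 and 22.4 at E10.5, and 21.3 and 20.6 at E11.5. The lowest head array stood above the highest trunk array. The head groups fell into the order of their stages without overlap, E9.5 above E10.5 above E11.5, whereas the arrays of trunk at E10.5 and E11.5 overlapped.

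Over the mean of the 3 stages the log2 difference of Lhx2, head minus trunk, was 4.81 ± 0.39 (SE, n = 6 arrays per region, limma adjusted p = 1.17e-05). Because all trunk values were dim, the fitted log2 value is not a measured fold. Set against the array median the fold was at least 2.22, at least 4.23 at E9.5 and at least 2.68 at E10.5. At E10.5 the difference was log2 4.84 (95% interval 3.36 to 6.33, limma adjusted p = 0.003). Without both E10.5 replicate 1 arrays it was 3.91, and the call ended (adjusted p = 0.0639). At E11.5 no array of either region reached the median, and the log2 difference of 2.34 did not pass (adjusted p = 0.126). It passed on log2(signal + 32), at 1.39 (adjusted p = 0.0208), and without trunk E10.5 replicate 1 (adjusted p = 0.0362).

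Lhx8 was also a head transcript, but its head groups stood in the opposite order of stage. Its signal in head was 75.7 and 270.1 at E9.5, 131.8 and 514.3 at E10.5, and 890.5 and 408.6 at E11.5. In trunk it was 9.8 and 6.8 at E9.5, 16.3 and 7.6 at E10.5, and 45.3 and 45.9 at E11.5. Every head array stood above every trunk array, while the head groups next to each other in this order overlapped. The spread between the 2 arrays of a head group was wide, with an SD of 1.30 on the log2 scale at E9.5, 1.39 at E10.5 and 0.79 at E11.5, against 0.06 to 0.35 for Lhx2 in head.

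Over the mean of the 3 stages Lhx8 was higher in head by log2 4.14 ± 0.43 (SE, n = 6 arrays per region, limma adjusted p = 7.15e-05), at least 2.57-fold. It was called at each stage, with log2 4.13 at E9.5 (adjusted p = 0.00561), 4.55 at E10.5 (adjusted p = 0.00616) and 3.72 at E11.5 (adjusted p = 0.0258). The fold against the array median was at least 1.31, at least 2.37 and at least 5.50 at these stages. Raising all dim signals to the array median gives the arrays of a dim group nearly the same value. Such groups then add almost no spread to the fit, so p-values on raised signals may understate the spread between arrays. With all dim signals raised in this way, the mean over stages was log2 1.45 and kept its call (adjusted p = 0.0256). The single stages then lost theirs, with log2 0.66 at E9.5 (adjusted p = 0.709), 1.24 at E10.5 (adjusted p = 0.245) and 2.46 at E11.5 (adjusted p = 0.0693). Without both E10.5 replicate 1 arrays the E10.5 difference was log2 6.08 (adjusted p = 0.0238). Leaving out head E9.5 replicate 2 ended the call at E9.5 (adjusted p = 0.0687), and leaving out trunk E10.5 replicate 2 ended that at E10.5 (adjusted p = 0.0727). At E11.5 the call was lost on leaving out any 1 of the 4 arrays of that stage, with an adjusted p of up to 0.182.

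Lhx9 was dim nearly throughout. Its tested probe set gave 9.1 and 31.9 in head at E9.5, 45.5 and 48.0 at E10.5, and 2.5 and 34.4 at E11.5. In trunk it gave 30.4 and 19.9 at E9.5, 45.9 and 85.9 at E10.5, and 142.8 and 174.4 at E11.5. Trunk at E11.5 was the single group above the array median, and its arrays did not overlap those of any other group. There the signal in head was lower than in trunk by a fitted log2 of −4.09 (95% interval −6.43 to −1.75), which did not pass (limma adjusted p = 0.0864). The trunk signal was at least 1.44-fold the dim head signal. On log2(signal + 32) the log2 difference was −1.99 and passed (adjusted p = 0.0148). Raising dim signals to the array median takes nearly all spread out of every group but trunk at E11.5. On raised signals the log2 difference was −0.52 and passed (adjusted p = 0.0447). Without head E11.5 replicate 2 it was −5.98 and passed (adjusted p = 0.0198), and without head E11.5 replicate 1 it was −2.20. Over the mean of the 3 stages the log2 difference of −1.68 did not pass (adjusted p = 0.118). It passed on log2(signal + 32), at −0.81 (adjusted p = 0.0331), and without head E11.5 replicate 2, at −2.31 (adjusted p = 0.0132). The other Lhx9 probe set was dim on all 12 arrays, between 15.3 and 58.7, and did not show the trunk signal at E11.5, where it gave 19.0 and 38.1.

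Lmo4 and Ldb1, the partners of the LIM-homeodomain proteins, were measured above or near the median in both regions. Lmo4 gave 168.2 and 348.9 in head at E9.5, 232.6 and 266.5 at E10.5, and 174.2 and 124.3 at E11.5. In trunk it gave 280.8 and 185.4 at E9.5, 158.2 and 140.1 at E10.5, and 96.9 and 111.1 at E11.5. The regions overlapped at E9.5 and did not overlap at E10.5 and E11.5, where both head arrays stood above both trunk arrays. The log2 difference over the mean of the stages was 0.44 (95% interval 0.01 to 0.88) and did not pass (limma adjusted p = 0.2). At E10.5 it was 0.74 (adjusted p = 0.217), and 0.93 without both E10.5 replicate 1 arrays (adjusted p = 0.675). On the same omission the uncalled E10.5 differences of Lhx9 and Ldb1 were −0.84 (adjusted p = 0.925) and −0.34 (adjusted p = 0.87).

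Ldb1 gave 161.8 and 234.2 in head at E9.5, 219.0 and 228.4 at E10.5, and 238.5 and 221.1 at E11.5. In trunk it gave 161.0 and 252.7 at E9.5, 275.8 and 288.5 at E10.5, and 334.8 and 269.0 at E11.5. All 12 arrays were above their median, and from E10.5 both trunk arrays stood above both head arrays. The log2 difference over the mean of the stages was −0.26 (95% interval −0.59 to 0.08, limma adjusted p = 0.344). This interval excludes a 2-fold difference in either direction, and it leaves a smaller one possible. No group of Ldb1 was dim, and its group means spanned log2 7.60 in head at E9.5 to 8.23 in trunk at E11.5.

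**Figure D1:**
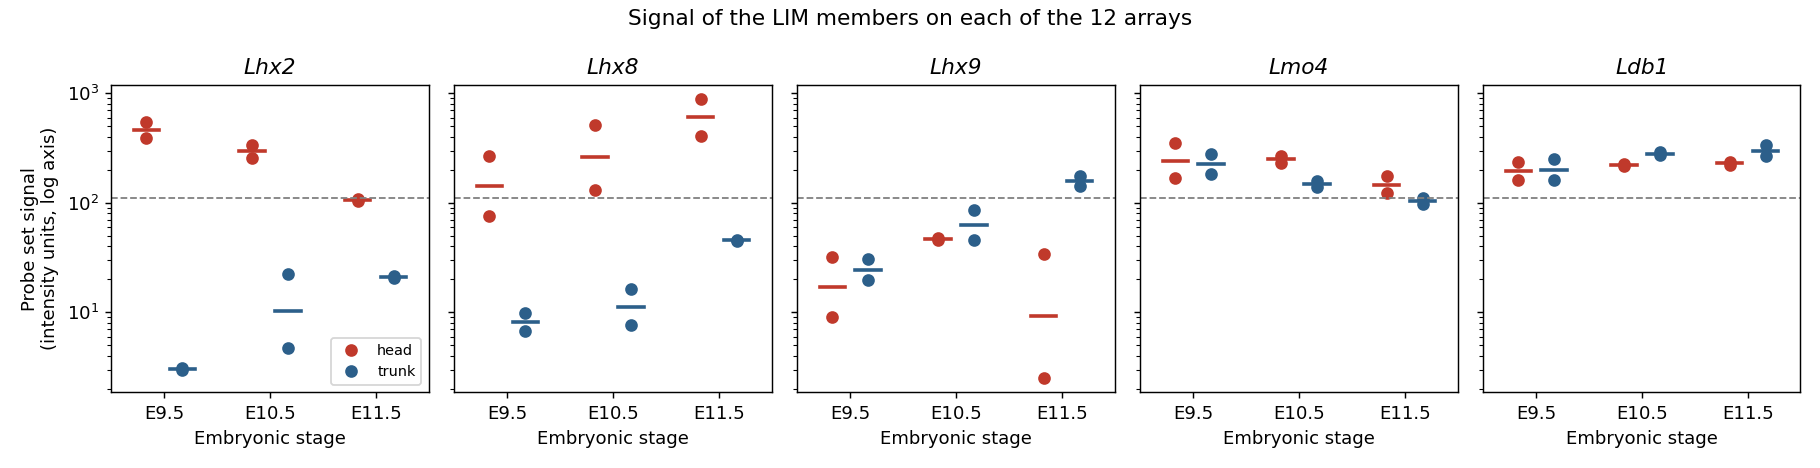
Probe set signal (intensity units, log axis) of Lhx2, Lhx8, Lhx9, Lmo4 and Ldb1 by embryonic stage, head in red to the left of trunk in blue; points are arrays (2 per group), bars are geometric means and the dashed line is the median probe set. Lhx2 and Lhx8 lie below the line in all trunk arrays, Lhx9 lies above it in trunk at E11.5 (142.8 and 174.4), and Ldb1 lies above it on all 12 arrays.

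Stage by stage, the members called between head and trunk were Lhx2 and Lhx8 at E9.5, the same pair at E10.5, and Lhx8 alone at E11.5. The share of all genes called was 5.92% at E9.5, 4.52% at E10.5 and 2.07% at E11.5. At E9.5 Lhx2 had a log2 difference of 7.26 (95% interval 5.78 to 8.74, limma adjusted p = 5.98e-05). Lmo4 (0.09, interval −0.67 to 0.84) and Ldb1 (−0.05, interval −0.63 to 0.53) had differences near 0 at that stage. The plot of head against trunk differences shows these values with their intervals.

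**Figure D2:**
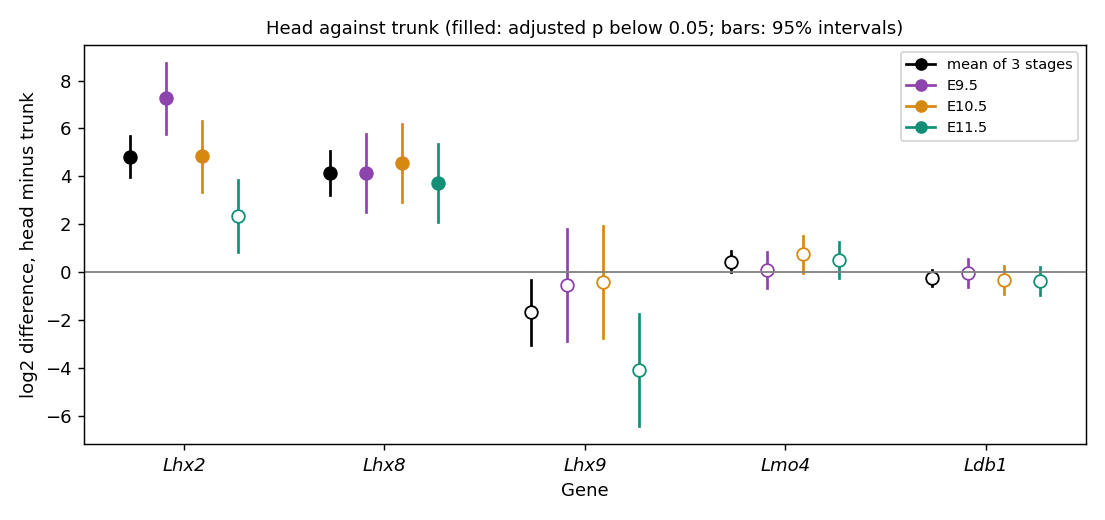
Log2 difference in signal, head minus trunk, for the 5 genes over the mean of 3 stages and at each stage, with 95% intervals from limma; filled points passed an adjusted p of 0.05. The points of Lhx2 step down with stage (7.26, 4.84 and 2.34), those of Lhx8 stay between 3.72 and 4.55, and those of Lmo4 and Ldb1 stay within 0.74 of 0.

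The change with stage within each region was the next comparison. From E9.5 to E11.5 in head no member was called, where 4.78% of all genes were. At an unadjusted p under 0.05 there were 2, Lhx2 and Lhx8, where 17.7% of all genes passed that threshold, and the limma fit was the one tool run. Lhx2 had a log2 change of −2.12 (95% interval −3.61 to −0.64, adjusted p = 0.109) and Lhx8 one of 2.08 (0.45 to 3.70, adjusted p = 0.151). The Lhx2 change passed at −1.84 on log2(signal + 32) (adjusted p = 0.00207). At −2.08 it passed when dim signals were raised to the array median (adjusted p = 0.000315), which takes nearly all spread out of dim groups. It also passed without trunk E10.5 replicate 1 (adjusted p = 0.0295) or replicate 2 (adjusted p = 0.0447). The Lhx8 change passed under none of its 23 alternatives. Lmo4 had a change of −0.72 (−1.48 to 0.04), Lhx9 one of −0.88 (−3.22 to 1.46) and Ldb1 one of 0.24 (−0.34 to 0.82).

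In trunk, Lhx2 and Lhx8 were called from E9.5 to E11.5, beside 13.4% of all genes, with log2 changes of 2.79 (adjusted p = 0.0175) and 2.49 (limma adjusted p = 0.0456). Both stages were dim for both genes, so no fold is given. With dim signals raised to the median both changes became 0 (adjusted p = 0.998 for each), and both calls were also lost on log2(signal + 32). The Lhx2 call was lost on leaving out any 1 of the 4 trunk arrays of these stages (adjusted p of up to 0.0826), and the Lhx8 call on leaving out any of 8 of the 12 arrays (up to 0.162). Lmo4 lay at the other side, with a trunk change of −1.14 (95% interval −1.90 to −0.38) that just missed the threshold (adjusted p = 0.0502), with signals of 96.9 and 111.1 at E11.5 and 280.8 and 185.4 at E9.5. It passed without head E9.5 replicate 1 (adjusted p = 0.0204) and without head E9.5 replicate 2 (adjusted p = 0.0222). Lhx9 had a trunk change of 2.68 (adjusted p = 0.131), which passed at 0.53 with dim signals raised to the median (adjusted p = 0.0148) and without head E11.5 replicate 1 (0.0268) or replicate 2 (0.0464). On log2(signal + 32) the Lhx9 trunk change was 1.74 and passed (adjusted p = 0.00973). Its pass on raised signals came from a fit in which the dim groups had almost no spread. Ldb1 had a trunk change of 0.57 (−0.01 to 1.16).

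Single days gave no member calls. The share of all genes called was 0.958% in head from E9.5 to E10.5, 0.984% in head from E10.5 to E11.5, 7.2% in trunk from E9.5 to E10.5 and 0.0259% in trunk from E10.5 to E11.5. At an unadjusted p under 0.05 the limma fit had 0, 0, 1 and 1 members in these comparisons, where 15.6%, 16.9%, 21.6% and 7.78% of all genes passed that threshold. The single members were Lhx2 in trunk over the earlier day (log2 1.77) and Lhx8 in trunk over the later day (2.04), both between dim signals.

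Whether the regions differed in their change was tested directly. Between E9.5 and E11.5 the change of Lhx2 was lower in head than in trunk, with a log2 difference of −4.91 ± 0.96 (SE, limma adjusted p = 0.0267), and it was the 1 member called, where 1.48% of all genes were. Raising dim signals to the median sets the trunk change to 0 and takes nearly all spread out of the trunk groups. The difference was then −2.08 (adjusted p = 0.00445). The call was lost on leaving out any of 9 of the 12 arrays, with values from −5.16 to −4.66 and the highest adjusted p, 0.134, on omission of head E9.5 replicate 2. For Lhx8 the difference was −0.41 (95% interval −2.70 to 1.88, limma adjusted p = 0.937), and it was 1.80 with dim signals raised to the median. Lhx9 had a difference of −3.56 (adjusted p = 0.358), Lmo4 one of 0.42 and Ldb1 one of −0.34. No member was called for the difference between regions from E9.5 to E10.5, where 0.389% of all genes were, or from E10.5 to E11.5, where 0% were. At an unadjusted p under 0.05 the limma fit had 1 member, Lhx2, in the earlier of these and 2, Lhx2 and Lhx9, in the later, where 11.9% and 10.2% of all genes passed that threshold.

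**Figure D3:**
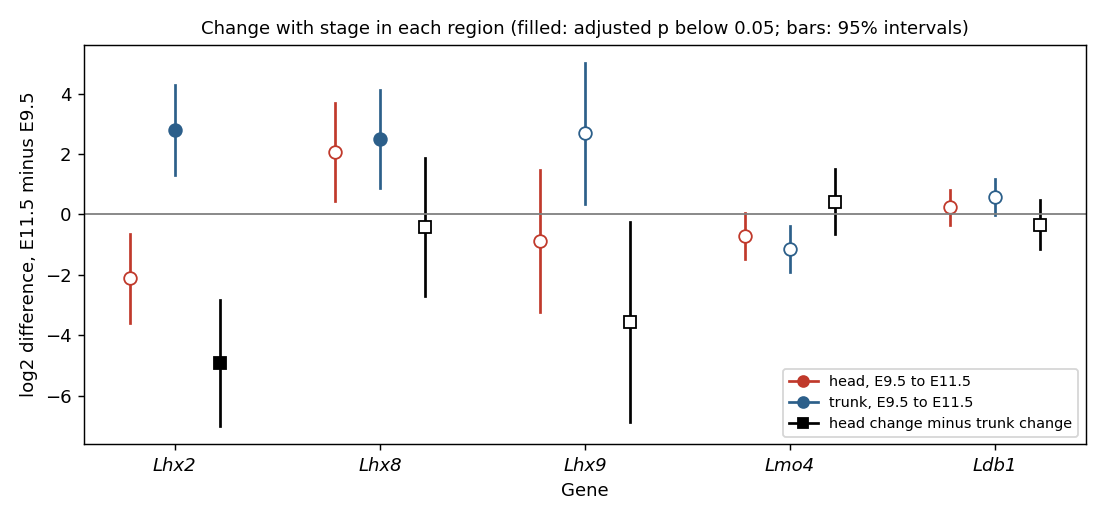
Log2 change between E9.5 and E11.5 in head and in trunk, and the head change minus the trunk change, with 95% intervals from limma; filled points passed an adjusted p of 0.05. Lhx2 has changes of opposite sign in the regions (−2.12 in head, 2.79 in trunk), Lhx8 has changes of like sign (2.08 and 2.49), and the filled trunk points of both rest on dim signals.

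Related genes of the network were taken from a list of 17: 9 further LIM-homeodomain genes, 3 LIM-only genes and 5 genes of the LDB complex. Of these, 16 had a probe set and 7 passed the filter on low signal. Over the mean of the 3 stages 4 of the 7 were higher in head and 0 lower, where 6.85% of all genes tested were higher and 3.61% lower. The median of the 7 was log2 0.62, against 0 for all genes. The higher ones were the LIM-homeodomain genes Isl1 and Isl2, the LIM-only gene Lmo2 and the second adaptor Ldb2. With no filter on low signal, Lhx6 was also called higher and Lhx1 lower in head, both on mostly dim signals. Lhx1 was then called lower at E11.5 as well. The DNA-binding partners of the adaptors Ssbp2 (−0.09) and Ssbp3 (0.12) and the ubiquitin ligase Rlim (−0.04), which marks LIM cofactors for breakdown, did not pass over the mean of the stages. At E9.5 Ssbp3 was higher in head (log2 0.63, limma adjusted p = 0.0331). This call was lost without the intensity trend, without both E10.5 replicate 1 arrays and on several omissions of single arrays. A second Ssbp3 probe set did not show it, with 152.2 and 147.4 in head and 170.6 and 119.0 in trunk at E9.5. Between E9.5 and E11.5 0 of the 7 passed in head, where 4.78% of all genes did. In trunk 4 of the 7 rose and 0 fell, where 674 of the 7721 genes rose and 364 fell. These were Isl1, Ldb2, Ssbp2 (0.83, limma adjusted p = 0.00527) and Ssbp3 (0.73, limma adjusted p = 0.00992). The Ssbp3 call was lost without trunk E9.5 replicate 1 and without either trunk E11.5 array, and the Ssbp2 call without trunk E11.5 replicate 2. The second Ssbp3 probe set gave 113.0 and 249.4 in trunk at E11.5, apart by more than at E9.5.

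Isl1, a factor of the second heart field and of motor neurons, was higher in head over the mean of the stages by log2 3.01 ± 0.17 (8.07-fold, limma adjusted p = 8.56e-07). Its signal in head was 2875 and 4933 at E9.5, 5482 and 4703 at E10.5, and 3080 and 3502 at E11.5. In trunk it was 181.4 and 153.8 at E9.5, 1026 and 933.7 at E10.5, and 521.6 and 1025 at E11.5. Unlike Lhx2 and Lhx8 it was measured above the median on every array, so that its changes can be read as folds. Between E9.5 and E11.5 it had a head change of log2 −0.20 (adjusted p = 0.806) and a trunk change of 2.13 (4.38-fold, limma adjusted p = 0.000777). The difference between these changes was −2.33 (adjusted p = 0.0199), a call that held under 15 of 23 alternatives (adjusted p of up to 0.0763). A second Isl1 probe set gave 804.6 to 1176 in head and 65.6 to 303.4 in trunk. Of 8 markers of neurons 7 were higher in head and 0 lower over the mean of the stages (median log2 1.30). By stage, 7 were higher at E9.5, 0 at E10.5 and 1 at E11.5, and 0 were lower at each. Their summed signal ran from 4678 to 8631 over the head groups. In trunk it ran from 516 to 836 at E9.5, 4385 to 4564 at E10.5 and 3736 to 4702 at E11.5. The part of these markers in the Isl1 result was not tested.

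Ldb2, the paralog of Ldb1, was higher in head at E9.5, with 644.5 and 767.8 in head against 229.1 and 215.5 in trunk (log2 1.66, 3.17-fold, limma adjusted p = 0.000435). At E11.5 the order of the regions was turned, with 571.7 and 465.2 in head against 832.4 and 668.6 in trunk, a log2 difference of −0.53 that did not pass (adjusted p = 0.29). Between E9.5 and E11.5 its change was lower in head than in trunk, with a log2 difference of −2.20 (adjusted p = 0.00268), and this call held under all 22 alternatives run, with values from −2.35 to −2.04. Ldb1 had a difference of −0.34 in the same test (95% interval −1.16 to 0.49). Whether the adaptors Ldb1 and Ldb2 differ from each other was not tested.

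Lmo2, a LIM-only gene of blood and endothelial progenitors, was higher in head by log2 1.60 ± 0.14 (limma adjusted p = 2.28e-05), at least 2.96-fold. Its head arrays ran from 293.5 to 494.4 and its trunk arrays from 94.3 to 163.3, without overlap. The 5 tested endothelial markers, Kdr, Cldn5, Cdh5, Tek and Tie1, were all higher in head in the same comparison, with a median of log2 1.90. The summed signal of the 6 endothelial markers on the array ran from 1168 to 3045 over the head groups and from 352 to 972 over the trunk groups, while Pecam1 was dim throughout. The 4 tested macrophage markers were also higher in head (median log2 1.31), and the summed signal of the 6 on the array ran from 791 to 2891 over the head groups and from 328 to 783 over the trunk groups. Of the 4 tested erythroid markers 0 were higher and 0 lower in head (median log2 0.50). The summed signal of the 5 on the array ran from 8481 to 25134 over the head groups and from 9665 to 16842 over the trunk groups. The part of any of these lists in the Lmo2 result was not tested. Isl2, named by its call, was higher in head by 0.98 ± 0.19 (limma adjusted p = 0.00543), at least 1.72-fold, and lost the call without both E10.5 replicate 1 arrays (adjusted p = 0.054).

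The 9 related genes that failed the filter were Lhx1, Lhx3, Lhx4, Lhx5, Lhx6, Lmx1a, Lmx1b, Lmo1 and Ssbp4. Lhx6, the close relative of Lhx8 in the jaw ectomesenchyme, ran from 62.4 to 185.5 in head and from 39.4 to 50.7 in trunk on 1 of its probe sets, and 1 array was above the median. Lhx1 lay between 5.9 and 54.8 in head and reached 96.1 and 97.6 in trunk at E11.5 on 1 of its probe sets. Lmo3 had no probe set under this annotation.

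**Figure D4:**
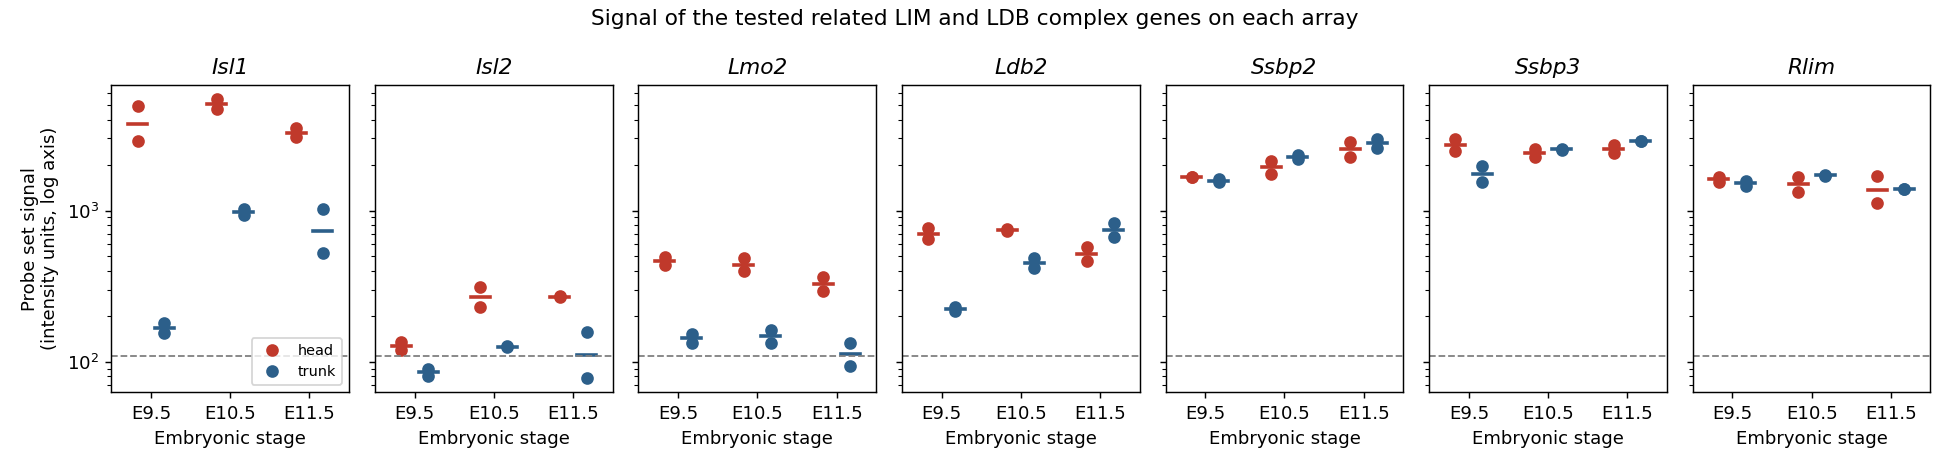
Probe set signal (intensity units, log axis) of the 7 tested related genes by embryonic stage, head in red to the left of trunk in blue; points are arrays, bars are geometric means and the dashed line is the median probe set. Isl1 and Lmo2 lie higher in head than in trunk at each stage without overlap, and the Ldb2 groups change order between E9.5 and E11.5.

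Markers of other cell types moved with the head and trunk groups. Several lists ran with Lhx8. One was the first arch ectomesenchyme, of whose 9 markers 5 were tested, with 2 higher in head and 0 lower (median log2 1.42). The summed signal of the list ran from 1828 to 4081 over the head groups and from 1003 to 3093 over the trunk groups. Over the 6 head arrays the log2 signal of Lhx8 and the mean log2 signal of the 9 markers had a Pearson r of 0.84 and a Spearman rho of 0.89, over 12 arrays 0.91 and 0.92. These are descriptions, since the points share their region, stage and RNA. At E10.5 in head, where Lhx8 gave 131.8 and 514.3, the markers of this list differed among themselves on the same replicates. Barx1 gave 16 and 179 and Dlx5 19 and 91, while Dlx2 gave 132 and 174, Prrx1 1171 and 1481 and Msx1 421 and 413. The muscle list had an r of 0.81 and a rho of 0.89 with Lhx8 over the 6 head arrays, and 0.35 and 0.31 over 12. Macrophage and endothelial markers had an r of 0.84 and 0.83 over 12 arrays and of 0.50 and 0 over the 6 head arrays. The part of these lists in the Lhx8 result was not tested.

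For Lhx2 the eye field and forebrain, epithelial, muscle and endothelial lists are given. Of 8 eye field and forebrain markers 6 were on the array and 2 were tested, with 1 higher and 1 lower in head. Otx2, a fore- and midbrain homeobox gene, gave 324 and 468 in head at E9.5, 61 and 87 at E10.5, and 14 and 4 at E11.5, and at most 6 on the trunk arrays. Pax6, the lower one, gave 77 and 93 in head at E9.5, 11 and 53 at E10.5, and 35 and 35 at E11.5. On the trunk arrays Pax6 gave 65 to 164. The eye field genes Rax and Six6 were dim on every array, at no more than 22 and 7, and Six3 stayed between 30 and 105. Hesx1 was dim as well, at no more than 55. On the head arrays every marker of this list but Otx2 at E9.5 was dim. The 5 epithelial markers were all higher in head (median log2 1.25), and their summed signal in head ran from 4118 to 4350 at E9.5, 1659 to 2048 at E10.5 and 756 to 822 at E11.5. Over the 6 head arrays the Pearson r of Lhx2 was 0.88 with the mean of the forebrain list and 0.93 with that of the epithelial list (Spearman rho 0.83 and 0.89), again as a description. Over 12 arrays these values were 0.51 and 0.55 (rho 0.36 and 0.57), and within the 6 trunk arrays, on dim Lhx2 signals, −0.75 and −0.74. The muscle list had an r of −0.90 over the head arrays and of −0.03 over 12, and the endothelial list 0.46 over the head arrays and 0.90 over 12. Their part in the Lhx2 result was not tested.

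For Lhx9 the signals of the dorsal neural tube interneuron and limb mesenchyme lists are given, and the r of some other lists beside theirs. Of the 5 interneuron markers 3 were on the array. Only Atoh1 was tested, and it was called neither over the mean of the stages nor at any stage. Olig3 and Barhl1 were dim on every array. Atoh1 was above the median only on replicate 2 of trunk at E10.5 (117) and at E11.5 (127). The summed signal of the 3, mostly of dim values, ran in head from 151 to 175 at E9.5, 91 to 167 at E10.5 and 59 to 89 at E11.5. In trunk it ran from 103 to 137 at E9.5, 113 to 197 at E10.5 and 146 to 248 at E11.5. Atoh1, which marks the interneurons that express Lhx9, gave 27 and 49 in head at E11.5 and 75 and 127 in trunk at E11.5. Of the 8 limb bud and lateral plate markers 3 were tested, with 0 higher and 1 lower in head at E11.5 (median log2 −0.43). Twist1 gave 338 and 263 in head and 1240 and 670 in trunk at that stage, Prrx1 2382 and 1419 in head and 2623 and 2342 in trunk, and Prrx2 412 and 355 in head and 162 and 152 in trunk. The other 5, Tbx5, Tbx4, Hoxd11, Hoxa11 and Hand2, were dim on every array. Over 12 arrays Lhx9 had an r of 0.68 with the interneuron list and of 0.22 with the limb list (rho 0.45 and 0.28). Within the 6 trunk arrays, where Lhx9 was dim before E11.5, these were 0.62 and 0.05. The muscle, macrophage, first arch and neuron lists had 0.91, 0.83, 0.77 and 0.76 within trunk, and 0.18, −0.21, −0.51 and 0.08 over 12 arrays. The forebrain and epithelial lists had −0.86 and −0.85 within trunk. The part of any of these lists in the Lhx9 values was not tested.

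The genes with the pattern most like each member were taken by Pearson r of log2 signal over the 12 arrays, among the genes tested. For Lhx2 they were the X-linked homeobox gene Rhox5 (r 0.97), the reticulum receptor gene Retreg1 (0.953), the cytochrome gene Cyp1b1 (0.948) and the ubiquitin ligase gene Trim25 (0.94). Cyp1b1 gave 1473 and 1183 in head at E9.5 and 497 and 524 at E11.5, against 191 and 221 in trunk at E9.5 and 289 and 375 at E11.5, so that its regions drew together with stage on bright signals. For Lhx8 they were S100a10 (0.938), the interleukin receptor gene Il13ra1 (0.933), the runt factor gene Runx1 (0.93) and Tmbim1 (0.929). Runx1 gave 179 and 137 in head at E9.5, 417 and 436 at E10.5 and 459 and 634 at E11.5, and no more than 108 on the trunk arrays. The Spearman rho was 0.888 to 0.944 for the genes beside Lhx2 and 0.909 to 0.951 for those beside Lhx8. All trunk values of Lhx2 and Lhx8 were dim, so each r rests in part on differences between dim signals.

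**Figure D5:**
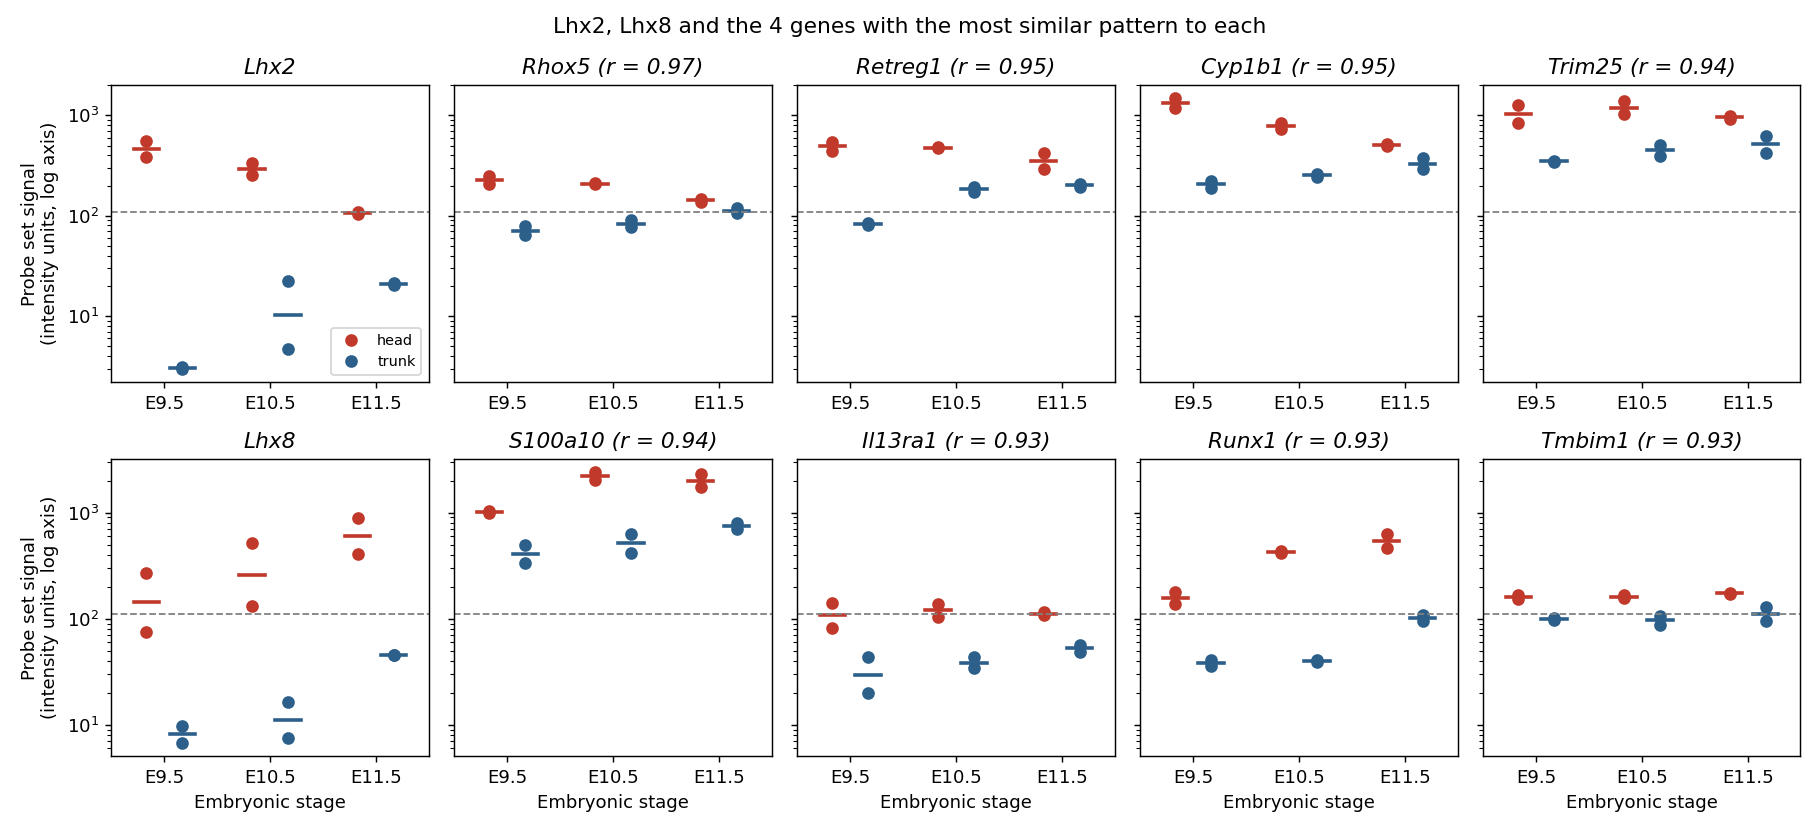
Probe set signal (intensity units, log axis) of Lhx2 (upper row) and Lhx8 (lower row) beside the 4 genes with the highest Pearson r to each over the 12 arrays, by embryonic stage, head in red to the left of trunk in blue; bars are geometric means and the dashed line is the median probe set. Cyp1b1 draws together between the regions with stage, and Runx1 is higher at the later stages in head.

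For Lhx9 the most alike were the mevalonate kinase gene Mvk (0.918), the metalloproteinase inhibitor gene Timp3 (0.908), Vopp1 (0.838) and Plppr4 (0.809). Their Spearman rho was 0.902, 0.930, 0.909 and 0.755. Lhx9 was above the median on only 2 arrays, so these values rest mostly on differences between dim signals. On head E11.5 replicate 1, where Lhx9 gave 2.5, the 4 genes gave 45, 599, 484 and 37. For Lmo4 they were the NEDD8-conjugating enzyme gene Ube2f (0.945), the phosphatase gene Ppp5c (0.932), Slc25a30 (0.92) and the basal transcription factor gene Gtf2e2 (0.912). For Ldb1 they were Lyrm2 (0.922), the semaphorin gene Sema4a (0.915), Ramp3 (0.913) and Bccip (0.911). Among the members themselves the highest r over the 12 arrays was that of Lhx2 with Lhx8, at 0.81 (Spearman rho 0.74). Within the 6 head arrays that pair had an r of −0.56, and within the 6 trunk arrays one of 0.59 on dim signals. Lmo4 and Ldb1 had an r of −0.55 (rho −0.60) over the 12 arrays, with 0.33 within head and −0.91 within trunk.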

How the data were processed

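Sorted cells were profiled on an Affymetrix mouse array. Per the labels, total RNA was extracted with QIAzol, amplified with a MessageAmp kit and hybridised as biotinylated cRNA. The deposited values are probe set signals with intensity as their unit, which per the submitters' processing notes come from MAS5 and Affymetrix Expression Console. No source used here states a later normalization. The signals were used as deposited and put on the log2 scale. Of 22690 probe sets 64 controls were left out, and 20380 had 1 gene, 691 several and 1555 none in the platform annotation. Entrez identifiers matched 20351 of them to the GRCm38.p6 gene table and changed 0 symbols. Testing required a signal above the array's median on 2 or more of the 12 arrays, and each gene was represented by its brightest such probe set.

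The fit was limma 3.58.1 in R 4.3.3, with 1 mean per group and an intensity trend (residual degrees of freedom 6, prior 5.87). The 13 comparisons were tested two-sided, with Benjamini-Hochberg adjustment over 7721 genes at 0.05. It was checked on simulated arrays. Where the dimmer group had a signal under the array median, that signal was set to the median and the fold printed as "at least". The number of arrays limits the precision. The named genes are the 5 members, the related genes that passed in head against trunk over the mean of 3 stages or failed the filter, the 4 genes of highest Pearson r with each member, and cell type markers. Rlim, Ssbp2 and Ssbp3 were named in addition. Of the marker lists, those beside which a member was set, and the markers named in them, were chosen after values were seen. Members and lists were chosen with earlier results of these data known.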

Additional observations from a re-analysis of the deposited data

Results flagged for a closer look

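The change in Lhx2 from E9.5 to E11.5 differed between the regions in the test of that difference: head minus trunk was log2 −4.91 (limma adjusted p = 0.0267). The head signal was 109.2 and 103.4 at E11.5 and 389.0 and 550.4 at E9.5, and the trunk signal 21.3 and 20.6 at E11.5 and 3.1 and 3.0 at E9.5. All trunk values lay below the array median.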

How the results depend on the processing

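Of the counts of members called, with signals raised to the array median 1 was called at E9.5 and 1 at E10.5 between head and trunk, and 1 in each of the head changes from E10.5 to E11.5 and from E9.5 to E11.5. Without both E10.5 replicate 1 arrays 1 was called at E10.5. On log2(signal + 32) 3 were called at E11.5 and 1 in the head change from E9.5 to E11.5, and without the intensity trend 0 were called at E11.5. Between E9.5 and E11.5 in trunk the count was 1 with no filter, on log2(signal + 32), with signals raised to the median, over every probe set, without the trend and with the replicate block. On log2(signal + 32) and with signals raised this was Lhx9, and the calls of Lhx2 and Lhx8 were both lost. In the other settings named it was Lhx2. Leaving out single arrays gave counts of 2 to 3 over the mean of the stages, 1 to 2 at E9.5, 1 to 2 at E10.5, 0 to 2 at E11.5, 0 to 1 for the head change from E9.5 to E11.5, 0 to 1 for the trunk change from E9.5 to E10.5, 0 to 3 for that from E9.5 to E11.5 and 0 to 1 for the region difference from E9.5 to E11.5.

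The differences that changed sign passed no test in either direction. The Lhx8 region difference from E9.5 to E11.5 became 0.87 on log2(signal + 32) and 1.80 with signals raised to the median, and ran from −1.33 to 0.51 over single omissions. The Lhx9 difference at E9.5 became 0.01 with signals raised and ran from −1.43 to 0.37, that at E10.5 from −0.88 to 0.03, and its head change from −2.77 to 1.01. The Lmo4 difference at E9.5 ran from −0.44 to 0.61 and its region difference from −0.11 to 0.94. The Ldb1 difference at E9.5 ran from −0.38 to 0.27 and its head change from −0.03 to 0.50. The causes were not tested.

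Same-numbered arrays deviated together with an r between −0.3 and 0.17 over 15 pairs of groups, so the numbers were not taken as pairing. The replicate block ended the Lhx8 call in the trunk change (2.49, adjusted p = 0.0585) and changed no other member's call. Requiring 4 arrays above the median gave no value for Lhx9, as did leaving out either trunk E11.5 array, and leaving out probe sets with an _a, _s or _x suffix gave none for Lmo4 and Ldb1. Signals below the array median and 2 arrays per group limit these results.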
